A study of Mus musculus with 12 samples.

Results

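Mouse bone marrow cells that had received a retrovirus for the leukaemia fusion gene MLL::AF9 and then a mock retrovirus (MA9 mock, 3 libraries) were described beside normal bone marrow cells with the mock retrovirus alone (WT mock, 3 libraries). These were 6 of the 12 libraries of the series, chosen by their labels. The other 6 received a retrovirus for the Prdm16 form that the labels call sPrdm16, in MA9 and in WT cells, and serve here as a second pair of groups. The stated aim of the study was to learn how sPrdm16 makes leukaemia cells resistant to chemotherapy, so the mock groups are the starting states of its experiment. MA9 cells were kept in RPMI1640 with 10% serum and 5 ng/ml IL-3, a cytokine on which myeloid progenitors grow. The labels name no medium for WT cells, and give neither the age of the mice, nor the promoter of the vectors, nor whether the MA9 cells were 1 clone or many. Nothing in the labels says that the 3 libraries of a group came from separate animals or cultures, so SDs may be technical.

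The genotypes came in separate tables, so genotype and table cannot be told apart, and no test is given. Levels, ranks and very large differences are described over the 21923 nuclear protein-coding genes among the 55487 genes of the tables. Levels are CPM, counts relative to the nuclear protein-coding total of a library after scaling by TMM, a method that sets the bulk of the genes level. Log2 differences are MA9 minus WT, with 2 counts added as prior, which understates differences of low genes, and their errors are SEs over the 3 and 3 libraries.

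MLL, encoded by Kmt2a, is a histone methyltransferase that keeps Hox genes active in blood progenitors. In MLL::AF9 its amino-terminal part is joined to the end of AF9 (gene Mllt3), which recruits the elongation machinery and the methyltransferase DOT1L to MLL target genes. HOXA9 and its partner MEIS1 then hold myeloid progenitors in a growing, immature state, with MYB as a further factor on which such cells depend. Normal marrow grown in culture, by contrast, matures along several myeloid branches.

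The nuclear protein-coding total was 7400897, 7406093 and 3844571 counts in MA9 mock replicates 1 to 3, and 16935786 to 17390446 in WT mock, so MA9 mock replicate 3 was the least precise. Structural RNAs such as ribosomal RNA took 59.3% to 74.4% of all counts in MA9 mock and 1.90% to 2.46% in WT mock. Libraries of 1 group differed by more than sampling noise, with a chi-square per gene of 8.60 to 20.8. Xist, the noncoding RNA of the inactive X chromosome, had 2, 0 and 0 counts in MA9 mock and 1021, 860 and 835 in WT mock. The Y-linked gene Ddx3y was read in every mock library, at 99.2 ± 10.6 CPM in MA9 and 47.3 ± 3.15 in WT (SD, n = 3), so WT libraries held X-inactivation and Y transcripts side by side. The part of sex, depth and structural RNA in the differences that follow was not tested.

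The 4 marker genes of the fusion cells were present in every MA9 mock library and far above the WT mock libraries. Kmt2a (chromosome 9, positions 44803355 to 44881296, mm10) had 2758, 2576 and 2834 CPM in MA9 mock and 76.8, 88.5 and 92.7 in WT mock. The counts do not separate the endogenous gene from any reads of the retroviral fusion that aligned to it. Meis1 (chromosome 11, positions 18879817 to 19018985) had 203, 178 and 163 CPM against 4.92, 7.61 and 6.92. Myb (chromosome 10, positions 21124935 to 21160984) had 1005, 956 and 902 CPM against 28.0, 29.0 and 38.2. Hoxa9 (chromosome 6, positions 52223100 to 52231089) had 90.9, 81.3 and 77.2 CPM against 0.262, 0 and 0. The groups did not overlap for any of the 4. Because genotype and table coincide, these levels do not test the label of the MA9 cells. Ranked by level per gene length, from rank 1 for the highest, Myb lay at a median rank of 144 in MA9 mock and 6204 in WT mock, and Kmt2a at 264 and 7264. Mllt3, the other end of the fusion, had 131 ± 9.49 CPM in MA9 mock and 13.7 ± 0.654 in WT mock (SD, n = 3). For Mllt3 too, any reads of the retroviral fusion are not separated from the endogenous gene.

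**Figure D1:**
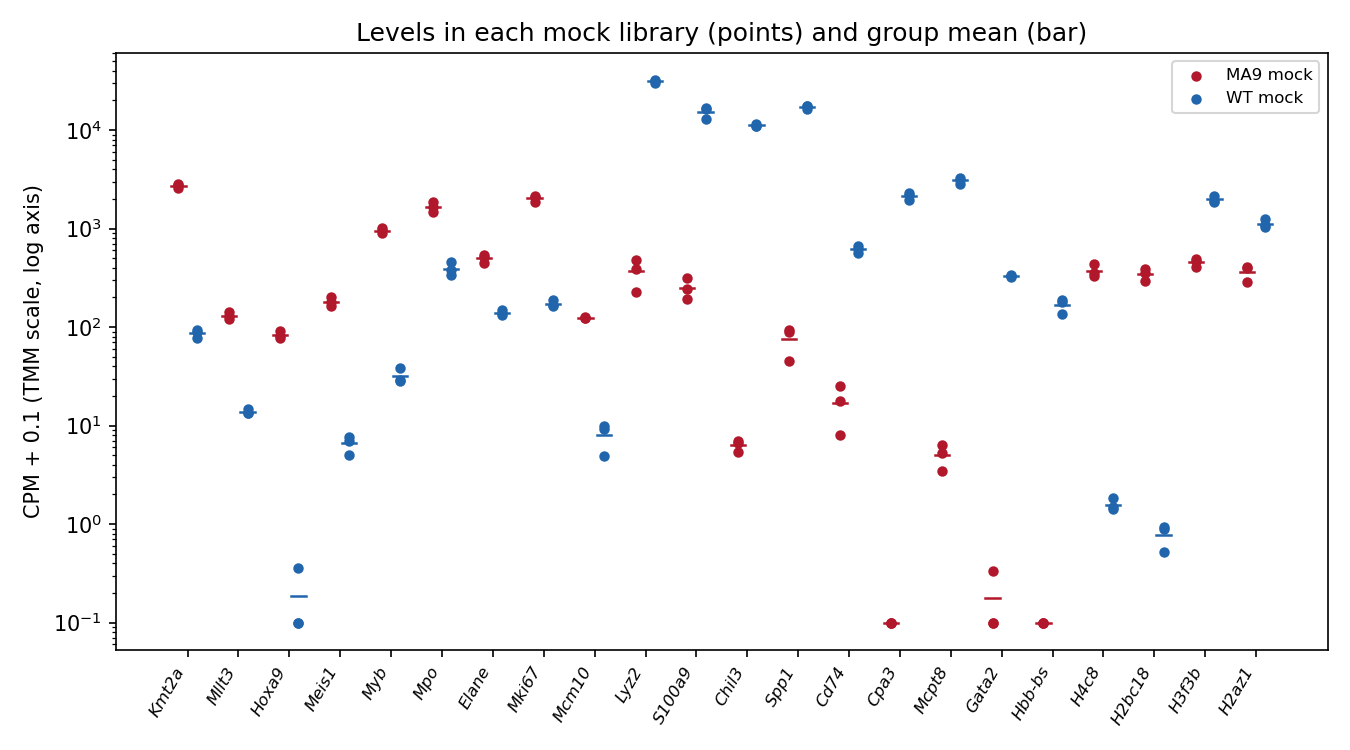
Level of 22 genes in each of the 3 MA9 mock (red) and 3 WT mock (blue) libraries, in CPM plus 0.1 on a log axis, with a bar at each group mean. Kmt2a lies near 2723 CPM in MA9 and 86.0 in WT, Cpa3 at 0 in MA9 and 2152 in WT, and H4c8 at 373 and 1.48, with no overlap between groups for any gene drawn.

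Very large differences were taken as those of at least 8-fold (3 on the log2 scale), with the higher group averaging 5 CPM or more and all 3 libraries of 1 group above all 3 of the other. Genes that met this are called far higher or far lower in MA9. Of the 10463 genes past the 5 CPM filter, 415 (3.97%) were far higher and 852 (8.14%) far lower. Absence of overlap alone marked little, because 37.6% of genes past the filter lay above and 42.8% below in all 3 libraries. Over all nuclear protein-coding genes, filtered or not, these shares were 20.1% and 24.1%. Within 0.25 log2 units of the 8-fold line, 184 genes fell inside and 234 outside. The split leaned to lower genes with TMM, with 32.8% of the far genes higher, but was 48.1% with plain protein-coding totals, which move the median of all genes up by 0.43. With the totals of all RNA classes as the base the median moved by -1.32, and 135 genes were far higher and 1982 far lower.

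**Figure D2:**
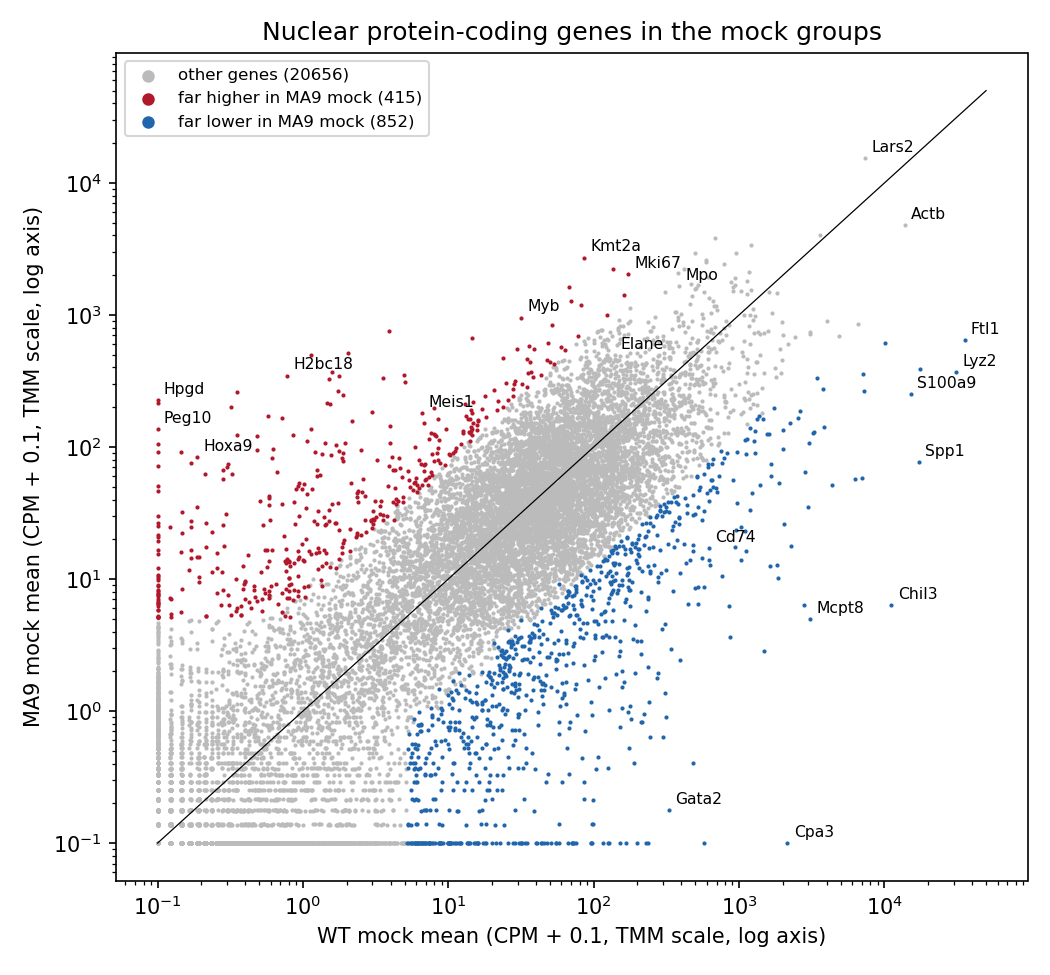
Mean CPM plus 0.1 of each nuclear protein-coding gene in WT mock (x) and MA9 mock (y), both on log axes, with the line of equality. The 415 far higher genes are red and the 852 far lower blue, and the abundant WT genes Ftl1, Lyz2 and Spp1 lie far below the line.

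Among the 10 most abundant genes of each group, Actb and Lars2 were in both sets. In WT mock the highest was Ftl1, a chain of the iron store ferritin, with 35548 ± 1074 CPM (SD, n = 3) against 646 ± 127 in MA9 mock. Lyz2, the lysozyme of myeloid cells, followed with 31247 ± 1182 against 367 ± 131, and then the other ferritin chain, Fth1, with 17486 ± 634 against 386 ± 65.1. Spp1, the secreted phosphoprotein osteopontin of macrophages, had 17688, 17581 and 16295 CPM in WT mock and 45.4, 94.0 and 89.2 in MA9 mock. Ctsd, the lysosomal protease cathepsin D, had 7216 ± 432 CPM in WT mock and 266 ± 47.7 in MA9 mock. Apart from Lars2, MA9 mock was led by genes such as Actb, Ncl and Hsp90ab1. Ncl, the nucleolar protein nucleolin, had 3848 ± 261 CPM there and 683 ± 42.9 in WT mock. Hsp90ab1, a chaperone, had 3358 ± 189 against 1200 ± 66.8, and Pabpc1, which binds poly(A) tails, 2521 ± 53.6 against 588 ± 62.2. Actb was high in each, with 4770 ± 371 CPM in MA9 and 13848 ± 1315 in WT. The 10 most abundant genes held 4.64% to 6.34% of the protein-coding counts in MA9 mock and 14.3% to 14.5% in WT mock.

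Lars2, the mitochondrial leucyl-tRNA synthetase, ranked first by CPM in MA9 mock but was uneven, with 11993, 10756 and 23654 CPM, against 5419, 7105 and 9599 in WT mock. Structural RNA was 59.3%, 60.9% and 74.4% of the counts in the same MA9 libraries and 1.90%, 2.39% and 2.46% in the WT libraries. Whether structural RNA had a part in the Lars2 level was not tested.

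The far higher genes with the largest differences were mostly genes that WT marrow hardly expressed. Hpgd, the dehydrogenase that inactivates prostaglandins, had 184, 241 and 253 CPM in MA9 mock and no count in any WT mock library. Against a floor of 3 counts in each WT library, which averages 0.204 CPM, it was at least 1107-fold higher. Sp9, a zinc-finger factor known from limb and forebrain, had 212, 233 and 201 CPM and no WT count, at least 1054-fold higher. Peg10, an imprinted gene derived from a retrotransposon, had 137, 138 and 134 CPM and no WT count, at least 669-fold higher. The ephrin receptor Epha7 had 199 ± 5.34 CPM against 0.221 ± 0.272 (SD, n = 3), and the actin-binding Afap1 124 ± 10.1 against 0.254 ± 0.280. Pnck, a calmodulin-dependent kinase, varied between the libraries, with 115, 183 and 485 CPM in MA9 mock, and the zinc-finger gene Zbtb10 had 352, 385 and 752. For these, replicate 3 was high while all 3 libraries stayed far above WT.

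Of 30 genes listed as targets of MLL fusions, 25 lay above and 3 below WT mock in all libraries, 11 were far higher and 1 far lower, and 23 passed the filter. The median log2 difference of all 30, filtered or not, was 2.91. It was 0 over all nuclear protein-coding genes and -0.12 over those past the filter. Along the Hoxa cluster on chromosome 6, levels per gene length (on a TPM scale) were highest at Hoxa7 and Hoxa9, with 85.9 and 85.8 TPM in MA9 mock. Hoxa10 followed with 44.9 TPM and Hoxa5 with 21.4, and Hoxa13, at 1 end of the cluster, had 1.16. Hoxa10 had 27.2, 33.8 and 44.3 CPM in MA9 mock and 0.262, 0 and 0 in WT mock. Hoxa5 had 12.1 ± 0.322 CPM and no WT count, at least 59.3-fold higher. Pbx3, a further HOX partner, had 60.4 ± 3.79 CPM against 8.06 ± 1.03.

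The homeobox factor Six4 and its partner Eya1, known from muscle and kidney development, were among the listed targets that were far higher. Six4 had 59.6, 62.0 and 65.2 CPM in MA9 mock and 0.131, 0.208 and 0 in WT mock, and Eya1 41.1 ± 3.85 against 0.486 ± 0.602. Cdk6, a kinase that drives entry into the cell cycle, had 919 ± 43.0 CPM against 149 ± 6.08. Exceptions went the other way: Id2, an inhibitor of helix-loop-helix factors, had 8.63 ± 3.65 CPM in MA9 mock and 526 ± 20.9 in WT mock, and the survival gene Bcl2 12.7 ± 2.84 against 74.7 ± 9.89. The cytokine receptor Flt3 had no count in MA9 mock and 0.293 ± 0.194 CPM in WT mock, and Mecom no count in MA9 mock and 0.572 ± 0.818 CPM in WT mock.

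Among 22 genes of the MLL and DOT1L complexes, 13 lay above and 4 below, and 2 were far higher, against 3.97% of all genes past the filter. The 2 were Kmt2a and Mllt3, the ends of the fusion. Their counts do not separate the endogenous genes from any reads of the retroviral fusion. The median log2 difference of the 22 was 0.51, and its sign changed on the totals of all RNA classes. Dot1l itself had 93.5 ± 1.11 CPM in MA9 mock and 42.7 ± 5.06 in WT mock. Men1, the gene of the MLL cofactor menin, had 27.3 ± 4.11 against 37.6 ± 5.27.

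Progenitor factors split. Of 30 stem and progenitor genes, 24 passed the filter, 3 were far higher and 8 far lower. The far shares among all genes past the filter were 3.97% and 8.14%. The median log2 difference of the 30 was 0.37 in mock and 0 in the sPrdm16 libraries. There, 2 of the list were far higher and 8 far lower, and Sox4 lay below WT. Kit, the stem cell factor receptor, had 94.3, 88.0 and 84.6 CPM in MA9 mock and 13.4, 6.99 and 9.69 in WT mock. Sox4 had 89.2 ± 8.59 CPM against 8.29 ± 1.51, and Lmo2 246 ± 23.9 against 83.8 ± 11.6. Gata2, which maintains stem, mast and basophil cells, had 2 counts in all in MA9 mock and 335, 326 and 328 CPM in WT mock, a ratio of 3595 (95% counting interval 995 to 29685). Cd34, a surface marker of progenitors, had 0.614 ± 0.354 CPM in MA9 mock and 10.1 ± 2.76 in WT mock, and Ly6a, the stem cell antigen Sca-1, 0.724 ± 0.649 against 57.1 ± 1.95.

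Cebpa, the factor that starts granulocyte development, was higher in MA9 mock, with 140 ± 13.7 CPM against 28.7 ± 0.268. Spi1, which encodes the myeloid factor PU.1, was lower, with 99.1 ± 10.8 against 434 ± 27.8. Cebpe, which acts later in granule formation, overlapped between the groups, with 45.5 ± 9.41 CPM against 34.3 ± 5.76.

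Neutrophils make their granules in stages, and the lists of early and late granule genes are given side by side with no test between them. Primary granule proteins are made by promyelocytes, and of 14 such genes 5 lay above and 8 below, with 1 far lower and a median log2 difference of -0.98. That median was -0.10 when counted from genes of like length, and 0.18 in the sPrdm16 libraries. Mpo, the peroxidase of these granules, had 1472, 1637 and 1843 CPM in MA9 mock and 375, 453 and 337 in WT mock. The elastase gene Elane had 497 ± 48.2 CPM against 139 ± 8.80, while the cathepsin G gene Ctsg had 355 ± 7.26 against 395 ± 54.3, with overlap. Among the 8 that lay below, Ctsc, the far lower one, had a mean of 93.5 CPM in MA9 mock and 749.5 in WT mock. Serpinb1a, also below, had 192 against 912. Secondary and tertiary granule genes belong to later stages. Of 31, 29 lay below and 24 were far lower, 1 lay above, and the median was -4.78, or -3.34 when counted from genes of like length. Ltf, the iron binder lactoferrin, had 3.18, 2.77 and 2.31 CPM in MA9 mock and 1449, 1536 and 1472 in WT mock. Chil3, a chitinase-like protein of myeloid cells, had 6.82, 6.57 and 5.30 CPM against 11059, 10961 and 11476. S100a8, a calcium-binding alarmin, kept a level of 609 ± 73.7 CPM against 10098 ± 1949, and Ngp, a granule protein, 697 ± 68.6 against 4860 ± 783.

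Monocyte and macrophage genes were lower as a body. Of 35, 31 passed the filter, 30 lay below, 20 were far lower and 1 lay above, with a median of -3.28. Gpnmb, a glycoprotein of macrophages, had 24.7, 38.9 and 42.2 CPM in MA9 mock and 3142, 2989 and 2824 in WT mock. Trem2, a lipid-sensing receptor, had 2.83 ± 1.02 CPM against 342 ± 23.3, and the galectin gene Lgals3 57.0 ± 11.6 against 6296 ± 611. Ccr2, the chemokine receptor of young monocytes, was closer, with 78.9, 137 and 176 CPM in MA9 mock and 195, 182 and 200 in WT mock. In bulk libraries, fewer cells of a type and less RNA per cell cannot be told apart.

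Mast cell and basophil genes had the lowest median log2 difference of the 12 cell type lists, -6.42. Of 32 genes, 23 passed the filter, 26 lay below and 21 were far lower, and 19 had no count in any MA9 mock library. Cpa3, the mast cell carboxypeptidase (chromosome 3, positions 20215620 to 20242181), had no MA9 count and 2211, 2292 and 1955 CPM in WT mock, at least 4683-fold lower against a floor of 3 counts in each MA9 library, or 0.460 CPM on average. Prss34, a basophil and mast cell protease, had no MA9 count and 586, 572 and 549 CPM, at least 1239-fold lower. Cd200r3, a receptor on the same cells, had no MA9 count and 240, 227 and 244 CPM, and Il1rl1, the IL-33 receptor, no MA9 count and 120, 133 and 120. The basophil protease Mcpt8 had 5.12, 3.34 and 6.23 CPM in MA9 mock and 2828, 3261 and 3141 in WT mock. Kit, which mast cells share with progenitors, was the listed gene that went the other way. Hdc, which makes histamine, was lower but well read, with 202 ± 4.31 CPM in MA9 mock and 555 ± 61.4 in WT mock.

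GATA factors bind the letters GATAA, and RefSeq promoters (250 bases before to 50 after the start, build GRCm38.p6) of mast and basophil genes were searched for these letters and their complement TTATC, a search added after the values were seen. They occurred in 15 of the 26 genes with a promoter (57.7%), in 9 of 28 secondary and tertiary granule genes (32.1%), in 8 of 28 monocyte and macrophage genes (28.6%), in 5 of 24 MLL targets (20.8%) and in 4264 of all 16802 genes with one (25.4%). The promoter of Cpa3, the gene with the largest difference, lies on the minus strand at chr3:20242132-20242431, and capitals mark the match. A match is a description of letters and not a binding site, and the far higher Hoxa9 held 1 too, while neither listed promoter of Gata2 did. The part of GATA factors in these differences was not tested, and the list members were chosen with earlier results of these data known.
Cpa3: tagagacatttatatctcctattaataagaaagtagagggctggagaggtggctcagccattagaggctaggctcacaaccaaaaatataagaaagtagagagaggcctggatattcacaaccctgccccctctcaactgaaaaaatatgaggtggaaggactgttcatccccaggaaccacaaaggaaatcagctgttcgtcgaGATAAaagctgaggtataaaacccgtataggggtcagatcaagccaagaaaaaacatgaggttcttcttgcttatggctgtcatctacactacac

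Eosinophil genes were mixed, with 10 of 16 past the filter, 1 far higher and 2 far lower. Over all genes past the filter the far shares were 3.97% and 8.14%. The far higher one was Ear1, a ribonuclease of eosinophil granules, with 10.6, 9.57 and 16.6 CPM in MA9 mock against 0.984, 0.0692 and 0.346. Its near copy Ear2 overlapped, with 26.9 ± 8.23 CPM against 29.6 ± 5.19, and counts of such copies are uncertain. Antigen-presenting genes were lower, with 22 of 27 below, 11 far lower and 1 above, and 15 past the filter. Cd74, the invariant chain of MHC class II, had 7.85, 17.9 and 25.4 CPM in MA9 mock and 620, 664 and 570 in WT mock.

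Of 24 erythroid genes 7 passed the filter and 17 had no count in any MA9 mock library. Far lower were 6, among them the adult globins. Hbb-bs had no MA9 count and 135, 178 and 187 CPM in WT mock, at least 363-fold lower, although near-identical globin copies may share reads. Tfrc, the transferrin receptor that all dividing cells use, was far higher, with 614 ± 43.4 CPM against 48.7 ± 6.57. Lymphoid genes were low in each group, since 2 of 22 B cell genes and 3 of 27 T and NK cell genes passed the filter. Of these, Il7r, the IL-7 receptor, had 0.651 ± 0.546 CPM in MA9 mock and 152 ± 4.98 in WT mock. Of 23 stromal and endothelial genes, 3 passed the filter, 4 lay above, 5 below and 14 overlapped. Fn1, fibronectin, was the far higher one, with 770, 1282 and 1524 CPM against 92.9, 85.3 and 65.7. Pecam1 lay below, with a mean of 29.0 CPM against 80.1. The stromal gene Vcam1, which did not pass the filter, had 4.56 ± 2.45 against 1.02 ± 0.175. The pan-blood surface list, which any blood cell should show, had 5 genes above and 15 below of 20, all past the filter, with 1 far lower and a median of -1.23. Ptprc, the CD45 antigen, was at 299 ± 32.2 CPM in MA9 mock and 460 ± 29.6 in WT mock. Cd52, the far lower one, had 12.7 ± 6.41 CPM against 631 ± 63.7.

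**Figure D3:**
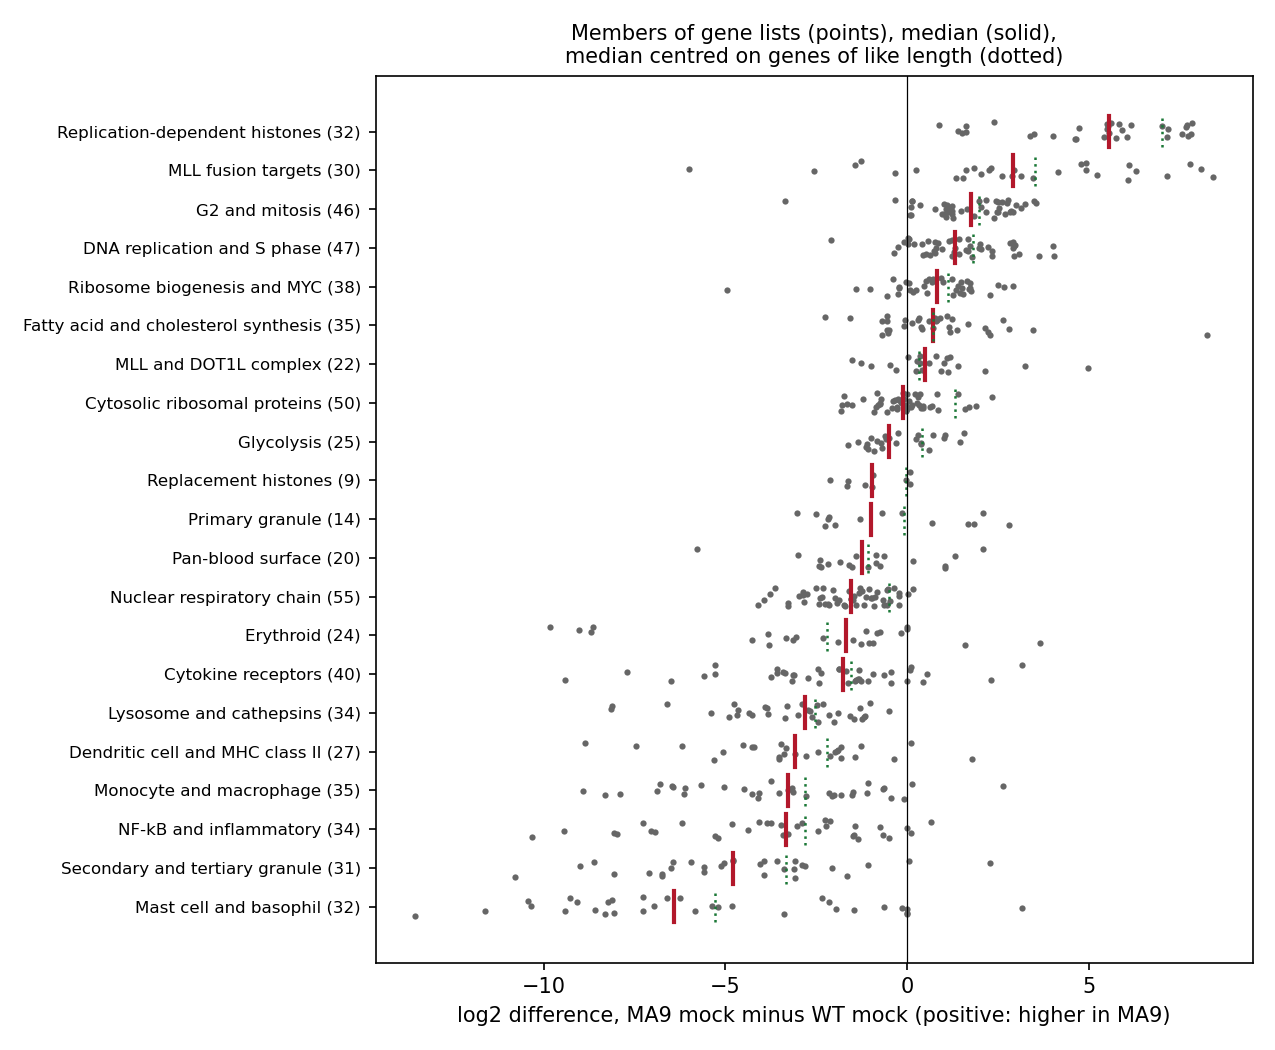
Log2 difference (MA9 mock minus WT mock) of each member of 21 gene lists, as points, with list sizes in brackets, the list median as a solid line and the median centred on genes of like length as a dotted line. Medians run from -6.42 for mast cell and basophil genes to 5.54 for replication-dependent histones. The dotted line lies well to the right of the solid one for most lists of short genes. For the erythroid list it lies to the left, at -2.21 against -1.69.

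Most listed proliferation genes were higher in MA9 mock. Of 47 replication and S phase genes, 39 lay above and 3 below, 4 were far higher and the median was 1.32, which changed sign with the totals of all RNA classes as the base. Of 46 genes of G2 and mitosis, 38 lay above and 1 below, 5 were far higher and the median was 1.75. Among all genes past the filter, 37.6% lay above and 3.97% were far higher. In the sPrdm16 libraries, 0 of the 47 and 1 of the 46 were far higher, with medians of 0.80 and 1.41. Mki67, the proliferation antigen Ki-67, had 1862, 2088 and 2130 CPM in MA9 mock and 169, 187 and 164 in WT mock. Mcm10, which helps to load the replication fork, had 124, 126 and 123 CPM against 4.79, 9.76 and 9.06, and the replicative polymerase gene Pole 127 ± 10.6 against 7.48 ± 0.442. The mitotic kinesin gene Kif11 had 316 ± 12.9 against 28.8 ± 8.02. Pttg1, which encodes securin, was the mitotic gene that lay below, with 5.02 ± 1.37 CPM against 52.3 ± 2.31. The cell cycle brake Cdkn1a had 45.1 ± 5.04 CPM in MA9 mock and 708 ± 17.1 in WT mock, and the cyclin D genes Ccnd2 and Ccnd3 had 59.4 ± 5.55 and 161 ± 25.3 against 350 ± 39.6 and 641 ± 6.94. 

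Replication-dependent histones make up the protein spools of new chromatin, and their messages normally end in a stem-loop in place of a poly(A) tail. All 32 listed genes lay above in MA9 mock, 26 were far higher and the median log2 difference was 5.54. H4c8 had 352, 328 and 438 CPM in MA9 mock and 1.31, 1.73 and 1.38 in WT mock. H2bc18 had 294, 353 and 393 CPM against 0.787, 0.831 and 0.415. H4c12 had 82.8, 98.6 and 95.5 CPM and 2 counts in all in WT mock, a ratio of 2022 (95% counting interval 559 to 16705). H3c14 had no WT count and was at least 452-fold higher. The smallest differences in the list were 0.87, for H2bc4 and H2bc21, and near-identical copies make single values uncertain. The list's share of protein-coding counts was 0.676% to 0.867% in MA9 mock and 0.0417% to 0.0464% in WT mock. The replacement histones, whose messages carry poly(A) tails and are made through the whole cycle, were set beside them as a list of 9 chosen after these values were seen. Of these 0 lay above and 6 below, with a median of -0.98 that was -0.04 when counted from genes of like length, and H3f3b, for histone H3.3, had 454 ± 45.5 CPM in MA9 mock and 1985 ± 147 in WT mock. The sources used here do not say for either table how messages without poly(A) tails were captured, and the part of capture in this difference was not tested.

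The stem-loop itself was looked for in the last 100 bases of GENCODE M21 transcripts (GRCm38), on the transcript strand, as GG, any 2 letters, CTTTT, any letter, AG, any 2 letters and CC. These letters were found in 22 of 21682 genes (0.101%), of which 13 were among the 32 listed histones and 9 were further histone genes. Of the 22, 21 lay above WT mock and 19 were far higher, with a median log2 difference of 5.79. As all 22 were histone genes, these counts restate the histone difference and are no separate support for it. The letters did not set higher members of the list apart. All 32 listed histones lay above, with or without the letters, and 26 were far higher, among them 12 of the 13 with the letters. H2bc18, H4c12 and H3c14 did not hold them. The exception was Hist1h2ap, with a log2 difference of -0.78. A looser pattern that was searched first, with CT, any letter, T and any 2 letters in place of CTTTT and the letter after it, was found in 33 genes (0.152%), of which 22 lay above and 19 were far higher, and the stricter letters were chosen after these matches were seen. Examples follow for H4, H3, H2B and H2A genes, with the matched letters in capitals and their neighbours in lower case, to show the form of the stem-loop across histone classes.
H4c8: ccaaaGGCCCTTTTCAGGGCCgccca
H3c2: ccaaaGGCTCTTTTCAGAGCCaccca
H2bc3: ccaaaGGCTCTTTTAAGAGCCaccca
H2ac20: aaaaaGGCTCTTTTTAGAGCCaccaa
Their log2 differences were 7.81, 7.70, 7.14 and 5.92 in that order. H4c8, H3c2 and H2bc3 lie on chromosome 13 and H2ac20 on chromosome 3.

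Gene length moved with the differences across all genes past the filter. In 5 classes from the shortest (243 to 1992 bases) to the longest (5290 to 123179 bases), the median log2 difference was -1.29, -0.57, -0.11, 0.30 and 1.05. Far lower genes numbered 335 in the shortest class and 82 in the longest, and far higher genes 74 and 153. Counted from the median of genes of like length, 386 genes were far higher and 703 far lower. The part of length in any single difference was not tested, and centred medians are printed for some lists only. Centring moved the mast cell and basophil median from -6.42 to -5.29 and the monocyte and macrophage median from -3.28 to -2.80. The MLL target median went from 2.91 to 3.52 and the replication and S phase median from 1.32 to 1.81. Centring turned the median of the eosinophil list from -0.64 to 0.34 and that of the glycolysis list from -0.49 to 0.40. Replication-dependent histones are short (median 625 bases), and their median was 7.02 after centring.

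**Figure D4:**
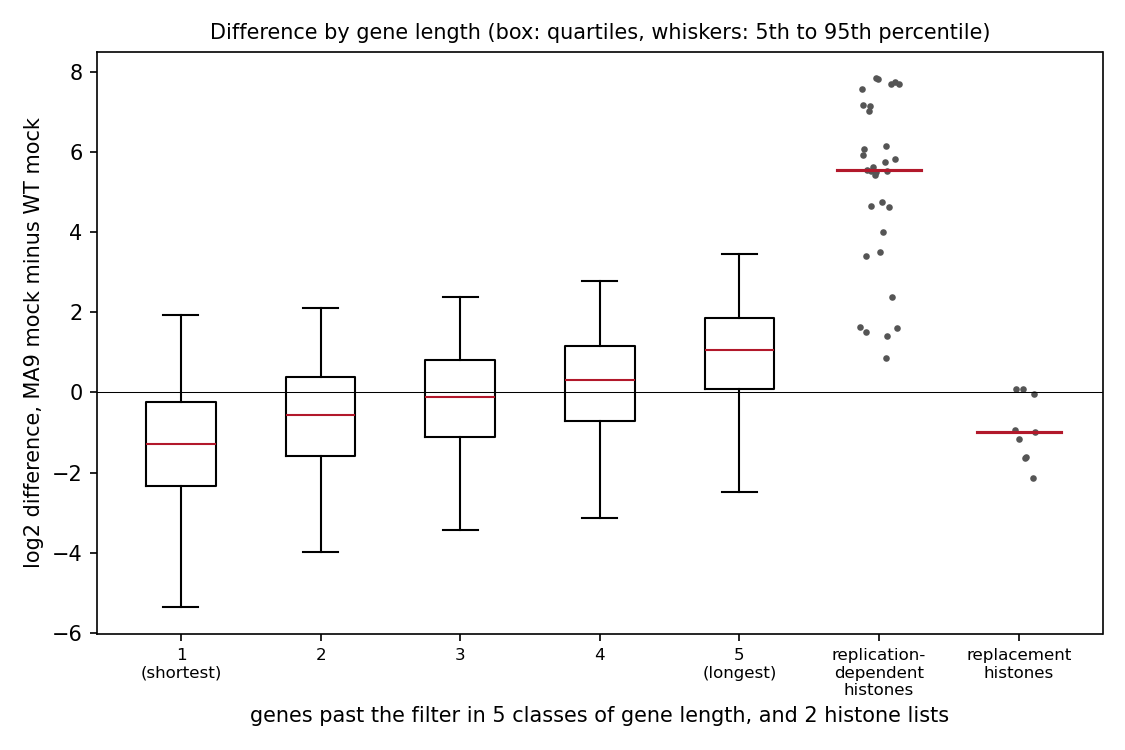
Log2 difference (MA9 mock minus WT mock) of genes past the filter in 5 classes of gene length, and of the replication-dependent and replacement histone lists. Classes are boxes of quartiles with whiskers from the 5th to the 95th percentile, list members are points, and red lines are medians. Class medians climb from -1.29 for the shortest genes to 1.05 for the longest, while the short replication-dependent histones have a median of 5.54.

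Genes of protein synthesis and energy use gave smaller differences. Of 38 ribosome biogenesis and MYC-related genes, 25 lay above, 5 below and 1 was far lower, with a median of 0.82 that changed sign with the totals of all RNA classes as the base. Npm1, the nucleolar chaperone nucleophosmin, had 1586 ± 47.9 CPM in MA9 mock and 505 ± 47.6 in WT mock. Myc had 264 ± 16.3 against 95.4 ± 10.9. Of 50 cytosolic ribosomal protein genes, 12 lay above, 18 below and 0 were far apart, with a median of -0.10 that changed sign on plain protein-coding totals and was 1.32 after centring on length. Rpl5 had 868 ± 88.9 CPM against 171 ± 21.5, and Rpl13 355 ± 10.7 against 1270 ± 153. Of 55 nuclear genes of the respiratory chain, 52 lay below and 6 were far lower, with a median of -1.56 that was -0.49 after centring. Over all genes past the filter, 42.8% lay below and 8.14% were far lower. In the shortest length class, 335 of 2094 genes were far lower. Cox6a1 had 34.8 ± 9.24 CPM against 523 ± 69.1, while the ATP synthase gene Atp5a1 had 548 ± 16.3 against 640 ± 27.1.

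Lipid synthesis and lipid uptake genes differed in their medians. Of 35 genes of fatty acid and cholesterol synthesis, 22 lay above and 9 below, 2 were far higher and 0 far lower. Over all genes past the filter, 37.6% lay above and 3.97% were far higher. The median of the 35 was 0.71 both before and after centring, and likewise changed sign on the totals of all RNA classes. Fasn, the fatty acid synthase, had 581, 606 and 610 CPM in MA9 mock and 95.6, 91.0 and 73.8 in WT mock. Me1, which supplies NADPH for this synthesis, had 23.8 ± 4.18 CPM against 2.01 ± 0.546. Of 22 genes of lipid uptake and efflux, 15 lay below and 2 above, 8 were far lower and 1 far higher, with a median of -1.89. Lpl, the lipoprotein lipase, had 165 ± 61.9 CPM against 2555 ± 212, and Plin2, a coat of lipid droplets, 140 ± 9.04 against 1188 ± 73.4.

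All 34 lysosome and cathepsin genes lay below in MA9 mock, 16 of them far lower, with a median of -2.80. Psap, the precursor of the saposins, had 258, 362 and 445 CPM against 7235, 6945 and 7168. Of 34 inflammatory genes of the NF-kB pathway, 29 lay below and 19 were far lower. Il6 had no MA9 count and 118, 119 and 143 CPM in WT mock, at least 275-fold lower, and Nfkbia, the pathway's own inhibitor, 43.4 ± 6.73 CPM against 479 ± 48.5. Arg1, an arginase of macrophages, had no MA9 count and 226, 231 and 233 CPM in WT mock. Of 40 cytokine receptor genes 29 lay below and 4 above, and 14 were far lower and 1 far higher. Csf2rb, the shared chain of the IL-3 and GM-CSF receptors, had 182, 198 and 211 CPM in MA9 mock and 1802, 1800 and 1617 in WT mock. The IL-3 receptor's own chain, Il3ra, which was chosen after its values were seen, had 10.7 ± 2.95 CPM against 38.8 ± 5.63.

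The sPrdm16 libraries, which share no library with the mock groups but carry the same split of genotypes over tables, were set beside them. There, structural RNA was 18.7% of the counts in MA9 and 1.72% in WT. Of the 10536 genes past their filter, 503 (4.77%) were far higher and 706 (6.7%) far lower in MA9. Far higher in each pair of groups were 252 genes, which is 60.7% of the mock genes and 50.1% of the sPrdm16 genes. Far lower in each were 522, or 61.3% and 73.9%. No gene was far higher in 1 pair and far lower in the other. Of the 415 genes far higher in mock libraries, 395 lay above in all sPrdm16 libraries too, and of the 852 far lower 821 lay below. The length classes ran from a median of -0.93 to 1.28, and 27 of the 32 replication-dependent histones were far higher.

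Some named genes had other differences in the sPrdm16 libraries. Mcpt8 had a mean of 196 CPM in WT sPrdm16 against 3077 in WT mock, and its log2 difference was -4.96 there and -9.28 in mock. S100a9 had 1054 CPM in MA9 sPrdm16 and 2343 in WT sPrdm16, a difference of -1.15, against -5.94 in mock. Pnck had 1.35 CPM in MA9 sPrdm16, and its difference was 3.30 against 9.24. The laminin gene Lama5 was at 0 in MA9 mock and at 4.46 CPM in MA9 sPrdm16. Sox4 lay above WT in the mock libraries, by 3.41, and below it in the sPrdm16 libraries, with a log2 difference of -0.43.

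**Figure D5:**
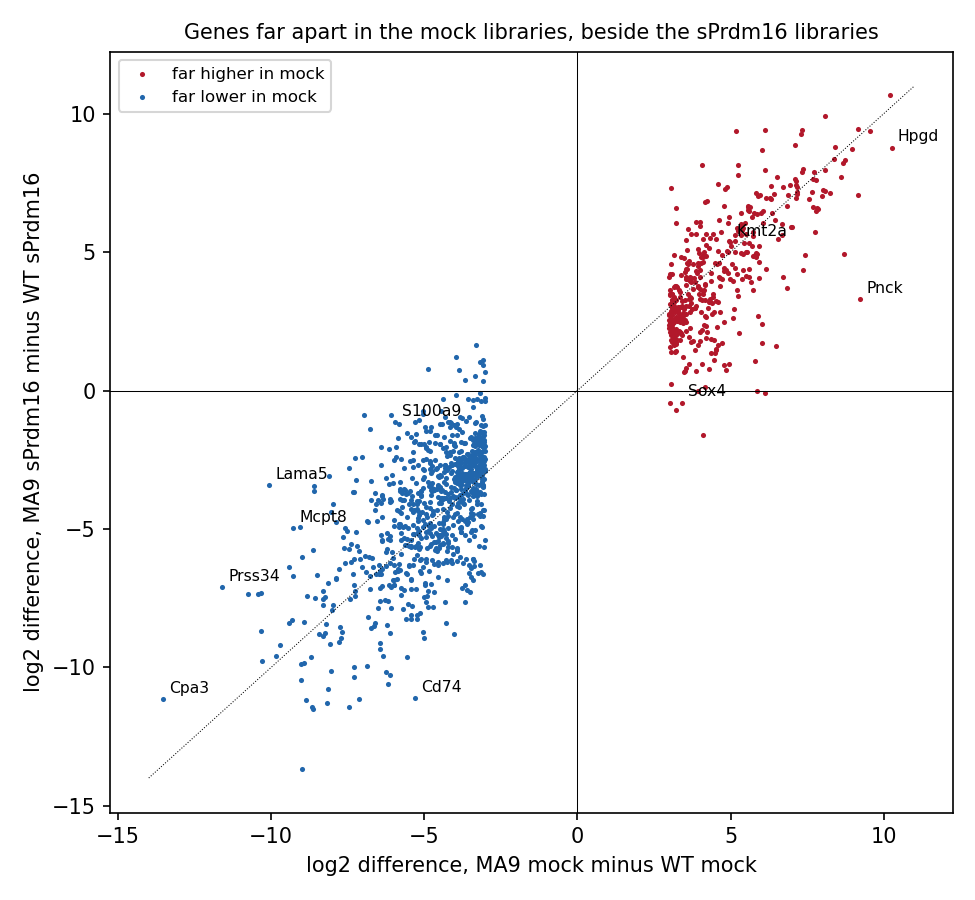
Log2 difference between MA9 and WT in mock libraries (x) and in sPrdm16 libraries (y) of the 415 far higher (red) and 852 far lower (blue) genes of the mock libraries, with a dotted line of equality. Most genes lie on the same side of 0 on each axis, and Pnck (9.24 and 3.30), Sox4 (3.41 and -0.43) and S100a9 (-5.94 and -1.15) lie off the line.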

How the data were processed

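RNA was read in 3 MA9 mock and 3 WT mock libraries, with 6 sPrdm16 libraries beside them. Per the labels' protocols, RNA came from RNeasy kits and the libraries from Nextera XT kits. The authors deposited 1 table per genotype of expected counts (estimated counts that need not be whole), made with DRAGEN on mm10 per the submitters' processing notes, and 5.19% to 10.2% of a library's values were not whole. The sources used here do not give the counter's settings, strand or any removal of ribosomal RNA, so antisense pairs cannot be told apart. The deposited gene length was used for levels per length. Gene positions were the same in GENCODE M21 for 99.1% of shared genes.

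The tables were joined by gene identifier and counts rounded. Nuclear protein-coding genes were kept and scaled with TMM in edgeR 4.0.16 (R 4.3.3) over the 6 mock libraries, and apart over the 6 sPrdm16 libraries. CPM means have SDs over 3 libraries, and log2 CPM used a prior count of 2. No test was run. Counting intervals are 95% and, like the floor of 3 counts per library, cover counting error alone.

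The members and 44 of the 45 gene lists were chosen with earlier results of these data known, and the list of replacement histones after their values were seen. Named genes were the 4 markers, the 12 far higher and 12 far lower genes with the largest differences among those at 20 CPM or more, the 10 most abundant genes of each group, up to 4 members per list by level and 4 by difference, and every member of 4 lists. Which of these are printed was chosen after their values were seen. Some genes under the rule are not reported here. Ccr2, Cd34, Cebpa, Ctsg, Elane, H2bc4, H2bc21, Il3ra, Kit, Myc, Nin, Ptprc, Sox4, Spi1 and Vcam1 fall outside this rule and were also chosen after their values were seen. Alternatives tried were other scalings, filters, prior counts, fold limits, equal depth, each library left out, and differences centred on genes of like length in 20 classes, the last added after seeing the data.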

Additional observations from a re-analysis of the deposited data

Results flagged for a closer look

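Several genes lay on opposite sides of WT in the mock and the sPrdm16 libraries, with no overlap in either pair of groups, and the difference between the pairs was not tested. The log2 differences (MA9 minus WT) were 3.41 in mock and -0.43 in sPrdm16 libraries for Sox4. For the peroxidase gene Mpo they were 2.09 and -0.43, and for the granule gene Ngp -2.79 and 0.65. For Lars2 they were 1.02 and -0.85, and for Men1 -0.46 and 0.27.

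Outside the protein-coding genes, Xist was read at 61.4 ± 4.89 CPM in WT mock (SD, n = 3), with 2 counts in all in MA9 mock.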

How the results depend on the processing

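No paired analysis was possible because the description comes from no test, and the replicate numbers of the separate tables share no label of animal or day. The main mock counts were 415 far higher and 852 far lower. With the total of all RNA classes as the base they were 135 and 1982, a shift that the structural RNA share of the MA9 libraries sets by construction. A limit of 4-fold gave 1052 and 1650 and one of 16-fold 231 and 514, and a filter of 20 CPM gave 267 far higher genes. In the sPrdm16 libraries, 4-fold gave 1241 and 1212, 16-fold gave 276 far higher genes, and 20 CPM gave 467 far lower genes. Leaving out each mock library in turn gave 415 to 465 far higher and 815 to 856 far lower genes, and each sPrdm16 library 498 to 509 and 706 to 717. RLE scaling, plain protein-coding totals, TMM without the 20 most abundant genes, prior counts of 0.5 and 8, equal depth and length centring all kept the mock counts within 1.5 times, from 315 to 618 and from 666 to 882. Of the genes named here, Sox4 was the far gene whose sign differed in the sPrdm16 libraries (-0.43), and over all far genes of the mock libraries 6 higher and 11 lower ones had the other sign there. Depth limits MA9 mock replicate 3 most, and zeros there allow up to 3 counts.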

Other observations

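Nin, the gene of the centrosome protein ninein, stood out by level and was chosen after its values were seen. It had 2291, 2214 and 2160 CPM in MA9 mock and 130, 140 and 133 in WT mock, a log2 difference of 4.04 ± 0.04 (SE, n = 3 and 3). By level per length it lay at a median rank of 182 in MA9 mock and 4613 in WT mock.

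Imprinted genes of the growth network, a list of 12 with 6 past the filter, held 3 far higher genes and 1 far lower. Among all genes past the filter the far shares were 3.97% and 8.14%. Gnas and Cdkn1c passed the filter without being far apart, with means of 304 and 8.60 CPM in MA9 mock against 586 and 6.97 in WT mock. Of the 12, 7 had no count in any MA9 mock library and 5 none in any WT mock library. The list median was 0, or -0.43 when counted from genes of like length, and unread genes weigh on both values. Beside Peg10, its neighbour Sgce had 10.0 ± 1.33 CPM in MA9 mock and 0.707 ± 0.255 in WT mock, and the growth factor receptor Igf2r had 210 ± 13.8 against 12.9 ± 1.99 (SD, n = 3 each). Grb10 had no MA9 count and 8.14, 4.91 and 9.69 CPM in WT mock, at least 16.5-fold lower.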
